A study of Mus musculus with 2 samples.

Results

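Expression of 9 genes encoding inhibitory and CD28-family receptors was measured in T cells sorted from the pancreatic islets of NOD mice, a strain that spontaneously develops autoimmune diabetes. The genes were Pdcd1 (PD-1), Lag3, Havcr2 (TIM-3), Tigit, Ctla4, Cd160, Icos, Cd28 and Btla, and each was matched by its symbol to 1 row of the count tables. They were the members examined among 27998 genes. All 9 passed the minimum of 20 UMIs (unique molecular identifiers, each standing for 1 captured RNA molecule) in both lineages described below.

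The series held 2 single-cell 3' RNA libraries. The control library was NOD.Foxp3-EGFP, whose mice carry a GFP reporter for Foxp3, and the other was NOD.Tnfrsf9-/-.Foxp3-EGFP, which carries the same reporter and lacks Tnfrsf9 (CD137, a costimulatory receptor of the TNF receptor family) in every cell type. Per the study's methods, each library pooled islets from 6 females aged 9 to 10 weeks, and the sorted populations, CD8 T cells and Foxp3+ regulatory T cells (Tregs), shared that library. The number of CD8 T cells relative to Tregs therefore carried no information about the islets. With 1 library per genotype, no difference between genotypes could be tested against variation between mice. The intervals given in parentheses are 95% intervals of counting error only, and a ratio was called when it passed 1.5-fold.

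These receptors set how strongly a T cell responds to antigen. CD28 supplies the positive signal that accompanies T cell receptor engagement, ICOS is its inducible relative, and CTLA-4 competes with CD28 for the shared ligands CD80 and CD86. PD-1, LAG-3, TIM-3, TIGIT, CD160 and BTLA deliver or modulate inhibitory signals through other ligands, of which CD160 and BTLA share HVEM (Tnfrsf14). Several of these receptors accumulate on T cells that meet antigen repeatedly, and Tregs carry high CTLA-4 and ICOS as part of their suppressive program.

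After cells outside 200 to 5000 detected genes or above 20% mitochondrial UMIs were removed, 2714 of 2804 wild-type and 2915 of 2991 knockout cells were kept. CD8 T cells, defined by 2 or more Cd8a and Cd8b1 UMIs without Cd4 or Foxp3, numbered 891 (wild type) and 1200 (knockout), with median depths of 6076 and 5275 UMIs. Tregs, defined by a UMI of Cd4, Foxp3, Il2ra or Ikzf2 without Cd8a or Cd8b1, numbered 1552 and 1444, with median depths of 4302 and 4308.5 UMIs. In each library 271 cells met neither definition, and 16 barcodes occurred in both libraries. Summed levels of markers that were not used in the definitions followed the labels. The 6 Treg markers (led by Tnfrsf4) summed to 3300 and 2641 CPM (UMIs per 1000000 UMIs) in Tregs against 337 and 299 CPM in CD8 T cells, and the 5 CD8 markers (led by Ccl5) summed to 13797 and 6959 CPM in CD8 T cells against 1230 and 772 CPM in Tregs. Per cell the separation was weaker. Of Tregs, 92.0% and 90.7% had 2 or more of the Treg markers, against 38.8% and 26.6% of CD8 T cells. Of CD8 T cells, 95.1% and 87.1% had 2 or more of the CD8 markers, against 49.1% and 32.3% of Tregs. Foxp3 UMIs were found in 13.2% and 19.5% of Tregs and Ikzf2 UMIs in 95.4% and 93.6%. Lists of other cell types were low, and each had 2 or more of its genes in at most 2.22% of a pool's cells. Their summed levels were 2.14 to 8.60 CPM for B cells (Ms4a1 at 0 in 2 of the 4 pools), 145 to 301 for myeloid cells (led by Cst3, with Csf1r at 0 in 3 pools), 0.900 to 59.4 for NK cells (led by Tyrobp in CD8 T cells), 20.2 to 68.4 for acinar cells, 9.10 to 20.1 for endocrine cells and 42.8 to 94.6 for endothelial or stromal cells (led by Pecam1, which T cells also express). Tnfrsf9 itself was at 106 CPM in wild-type and 32.0 CPM in knockout CD8 T cells, and at 337 and 110.1 CPM in Tregs. Its remaining UMIs were not assigned to exons here.

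The lineages differed in most of the receptors, and in the same direction in both libraries. Of the 9 genes, Tigit, Ctla4, Icos and Cd28 were more than 1.5-fold lower in CD8 T cells than in Tregs in both libraries, where 12.9% of 12397 genes were lower by that rule, and Pdcd1 and Cd160 were more than 1.5-fold higher in both, where 5.81% of genes were. Lag3 was also lower in CD8 T cells, by 1.51-fold (wild type) and 1.46-fold (knockout). Levels of different genes are not compared, because the number of UMIs captured from a transcript also depends on the gene.

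Ctla4, the competitor of CD28 for its ligands, was at 1567 CPM (1541 to 1594) in wild-type Tregs and 1419 CPM (1393 to 1445) in knockout Tregs. In CD8 T cells it was at 289 CPM (276 to 302) and 300.1 CPM (288 to 312). Tregs thus exceeded CD8 T cells by 5.43-fold (wild type) and 4.73-fold (knockout), and the intervals of the lineages were far apart. Icos was at 348 and 369.9 CPM in Tregs and at 72.4 and 78.5 CPM in CD8 T cells. Cd28 was at 291 and 337 CPM in Tregs and at 146 and 185 CPM in CD8 T cells, and Tigit, which binds CD155 (Pvr), was at 56.2 and 59.6 CPM in Tregs and at 23.1 and 17.6 CPM in CD8 T cells. All 4 genes were thus higher in each Treg pool than in either CD8 pool.

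Cd160, a receptor for HVEM (Tnfrsf14) that is typical of cytotoxic cells, showed the widest lineage gap of the 9 genes. It was at 113 CPM (106 to 121) and 101 CPM (93.9 to 108) in wild-type and knockout CD8 T cells, and at 4.72 CPM (3.41 to 6.39) and 5.76 CPM (4.24 to 7.67) in Tregs. The Treg level was 4.17% and 5.72% of the CD8 level. Of 5 cytotoxic transcripts set beside it, Ccl5 was at 5.49% and 6.01% of its CD8 level in Tregs, and Nkg7, Gzmk, Ctsw and Gzmb were at 17.2% to 51.1%, so Cd160 in Tregs was not distinguished from RNA of other cells in the droplets. Pdcd1 was 2.48-fold higher in CD8 T cells than in Tregs in the wild type (273 against 109.7 CPM) and 1.54-fold higher in the knockout (144 against 93.5 CPM). Havcr2 was 2.05-fold higher in wild-type CD8 T cells (47.2 against 23.1 CPM), whereas the knockout values of 28.8 and 24.5 CPM had overlapping intervals. Btla, also a receptor for HVEM, was at 20.4 and 30.9 CPM in CD8 T cells and at 27.2 and 37.0 CPM in Tregs.

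**Figure D1:**
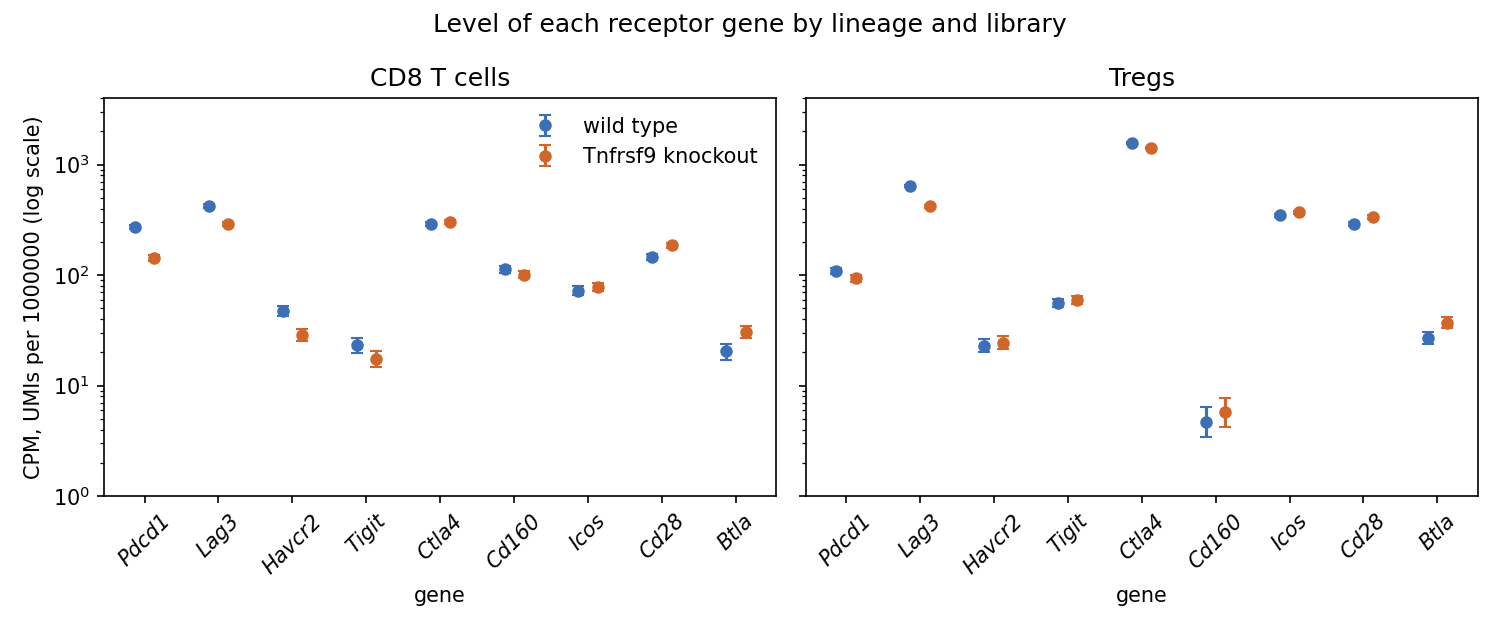
CPM (log axis) of the 9 receptor genes in CD8 T cells and Tregs. Each point is 1 library and bars are 95% Poisson intervals (counting error only). Within CD8 T cells, Pdcd1 (273 and 144) and Lag3 (422 and 288) were lower in the knockout, and Cd160 was at 4.72 and 5.76 in Tregs against 113 and 101 in CD8 T cells.

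The next question was how the receptors differed between the knockout and the wild type within each lineage. In CD8 T cells, Pdcd1 and Havcr2 were more than 1.5-fold lower in the knockout (2 of 9 genes, where 8.2% of 11083 genes were lower by that rule), and Btla was more than 1.5-fold higher (1 of 9, against 13.7% of genes). In Tregs, Lag3 was more than 1.5-fold lower (1 of 9, against 3.62% of 11428 genes) and none was more than 1.5-fold higher (against 6.93%). The median log2 ratio of the 9 genes was -0.17 in CD8 T cells, with a range from -0.93 to 0.60, and 0.09 in Tregs, with a range from -0.61 to 0.44. The median over all genes was 0.04 in either lineage.

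Pdcd1 had the lowest ratio in CD8 T cells. It was at 273 CPM (260.5 to 285) in the wild type and 144 CPM (135 to 152) in the knockout, a log2 ratio of -0.93 (-1.03 to -0.82). In thinned cells the difference lay in the share of cells with a Pdcd1 UMI. After each cell was thinned to 2000 UMIs, that share was 32.8% (29.7 to 36.1) in the wild type and 15.1% (13.1 to 17.3) in the knockout, whereas cells with a UMI held 1.62 and 1.60 UMIs on average. In quiescent CD8 T cells, described below and used as the background, the share was 0.952% and 0.917%. Without thinning, cells with a Pdcd1 UMI held 3.75 and 3.30 UMIs on average, at median depths of 6076 and 5275 UMIs. Effector CD8 T cells, also described below, held 3.82 and 3.20 per such cell, at median depths of 5587 and 5245 UMIs. In Tregs the difference in Pdcd1 level was smaller, with 109.7 and 93.5 CPM and a log2 ratio of -0.23 (-0.37 to -0.09).

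Promoter sequences are shown for the 3 genes past 1.5-fold in CD8 T cells, from 250 bases before to 50 bases after the annotated start (RefSeq, GRCm38.p6, 5' to 3' on the gene's strand). Capitals mark the NFAT core GGAAA on either strand; AP-1 (TGACTCA) and STAT (TTCNNNGAA) motifs were also searched on both strands. The windows are chr1:94052504-94052803 (minus strand) for Pdcd1, chr11:46454681-46454980 (plus strand) for Havcr2 and chr16:45224087-45224386 (plus strand) for Btla.
Pdcd1: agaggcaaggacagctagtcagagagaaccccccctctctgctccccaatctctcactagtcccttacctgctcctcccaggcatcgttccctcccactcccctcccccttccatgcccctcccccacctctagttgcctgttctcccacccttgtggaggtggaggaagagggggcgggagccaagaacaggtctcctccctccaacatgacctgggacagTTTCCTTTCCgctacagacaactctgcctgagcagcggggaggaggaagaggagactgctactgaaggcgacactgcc
Havcr2: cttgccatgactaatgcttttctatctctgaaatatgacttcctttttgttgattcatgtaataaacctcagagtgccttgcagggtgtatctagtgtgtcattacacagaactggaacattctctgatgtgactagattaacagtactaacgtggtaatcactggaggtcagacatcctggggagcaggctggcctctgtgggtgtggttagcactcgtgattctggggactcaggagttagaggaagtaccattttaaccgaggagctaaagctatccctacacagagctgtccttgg
Btla: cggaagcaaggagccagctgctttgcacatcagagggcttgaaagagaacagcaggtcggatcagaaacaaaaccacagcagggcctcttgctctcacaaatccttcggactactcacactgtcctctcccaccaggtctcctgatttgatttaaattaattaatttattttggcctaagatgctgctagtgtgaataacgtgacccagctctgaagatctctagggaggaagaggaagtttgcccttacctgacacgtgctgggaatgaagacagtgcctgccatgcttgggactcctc
The Pdcd1 window held 2 adjacent matches to the NFAT core, read on the opposite strand, and the Havcr2 and Btla windows held 0. The core was present in 61.3% of 32851 promoter windows, and neither the AP-1 motif (5.2% of windows) nor the STAT motif (8.3%) occurred in these 3. A match is a description of the letters and not evidence of binding.

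Lag3, a receptor for MHC class II, was lower in the knockout in both lineages. In CD8 T cells it was at 422 CPM (407 to 438) and 288 CPM (276 to 299.6), a log2 ratio of -0.55 (-0.63 to -0.47), short of 1.5-fold, and -0.70 with each cell given the same weight. In Tregs it was at 638 CPM (621 to 654) and 419 CPM (405 to 433), a log2 ratio of -0.61 (-0.67 to -0.55), just past it, and at -0.57 without cells that held genes of another cell type. The share of thinned Tregs with a Lag3 UMI was 43.8% (wild type) and 29.3% (knockout), and these cells held 3.17 and 2.75 UMIs on average. In thinned CD8 T cells the share was 43.4% and 24.2%, with 2.09 and 2.16 UMIs per such cell. Lag3 lies next to Cd4 on chromosome 6 (GENCODE, GRCm38; Lag3 at 124904361 to 124911705 and Cd4 at 124864692 to 124888221, both on the minus strand) without overlapping it.

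Havcr2, which binds galectin-9 and is found on terminally differentiated T cells, was at 47.2 CPM (42.2 to 52.6) in wild-type and 28.8 CPM (25.2 to 32.8) in knockout CD8 T cells, a log2 ratio of -0.71 (-0.96 to -0.46). In Tregs it was at 23.1 and 24.5 CPM, a log2 ratio of 0.09 (-0.20 to 0.38) whose interval held 0. Tigit showed a log2 ratio of -0.39 (-0.73 to -0.06) in CD8 T cells and 0.08 (-0.10 to 0.27) in Tregs. Cd160 was slightly lower in CD8 T cells of the knockout, with a log2 ratio of -0.17 (-0.31 to -0.03).

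Cd28, Ctla4 and Icos lie side by side on chromosome 1 (GRCm38, plus strand, 60716800 to 60773359, 60887000 to 60915832 and 60977927 to 61000320), and their log2 ratios in CD8 T cells were 0.34 (0.23 to 0.46) for Cd28, 0.06 (-0.03 to 0.14) for Ctla4 and 0.12 (-0.05 to 0.29) for Icos. In Tregs they were 0.21 (0.13 to 0.29) for Cd28, -0.14 (-0.18 to -0.11) for Ctla4 and 0.09 (0.02 to 0.16) for Icos. By summed UMIs, Cd28 was thus higher in the knockout in both lineages beyond counting error, and Ctla4 was lower in Tregs by 1.10-fold. The share of thinned cells with a Cd28 UMI was 24.5% and 27.6% in CD8 T cells, a difference whose interval held 0 (3.13 percentage points, -0.72 to 6.92). In Tregs it was 41.4% and 47.0% (5.62 points, 1.98 to 9.24). The share of thinned Tregs with a Ctla4 UMI was 86.3% and 83.9%, a difference whose interval held 0 (-2.44 points, -5.06 to 0.17). The signs of the Ctla4 and Icos ratios in CD8 T cells depended on how cells were weighted. The share of thinned CD8 T cells with a Ctla4 UMI was 38.7% and 30.8%, a difference of -7.85 percentage points (-12.0 to -3.69). With each cell given the same weight Ctla4 was at -0.17, and with each cell thinned to 2000 UMIs Ctla4 was at -0.17 and Icos at -0.21. By summed UMIs, Btla was higher in the knockout in both lineages, with log2 ratios of 0.60 (0.29 to 0.91) in CD8 T cells and 0.44 (0.20 to 0.69) in Tregs, although it rested on 143 to 302 UMIs per pool, and without cycling cells its CD8 ratio was 0.22. The share of thinned CD8 T cells with a Btla UMI was 4.46% and 6.33%, a difference whose interval held 0 (1.87 points, -0.14 to 3.81). In Tregs it was 5.15% and 7.27% (2.12 points, 0.36 to 3.92).

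To see whether these differences were also present among cells of the same state, cells of each lineage were split by genes other than the receptors. Cycling cells had 2 or more UMIs of Mki67, Top2a, Birc5, Cdk1 and Ube2c. Of the others, quiescent cells had 2 or more UMIs of Ccr7 and Lef1 (genes of naive and resting T cells) and more of these than of effector genes, and effector cells had 2 or more effector UMIs (Cxcr6, Ccl5, Nkg7 and Gzmb in CD8 T cells, Itgae, Cxcr6, Ccr8, Klrg1 and Tbx21 in Tregs) and none of the quiescence genes. Quiescent cells made up 11.8% (9.74 to 14.1) of wild-type and 36.4% (33.7 to 39.2) of knockout CD8 T cells, effector cells 37.1% and 23.4%, cycling cells 24.5% and 11.0%, and the remaining cells 26.6% and 29.2%. Among Tregs, quiescent cells made up 18.1% and 22.8%, effector cells 22.6% and 14.9%, cycling cells 13.2% and 15.6%, and the remaining cells 46.1% and 46.7%. The states are ranges of a score rather than cell types, and 16.2% and 11.4% of the quiescent CD8 T cells and 45.9% and 43.5% of the quiescent Tregs lay at the limit of the definition. The CD8 states were not matched between libraries in effector content. Median effector UMIs per cell were 90.0 and 71.0 in effector cells, 135.5 and 60.5 in cycling cells, 22.0 and 10.0 in the remaining cells and 3 in quiescent cells of either library, and the part of this in the ratios within states was not tested.

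All 5 of the receptors Pdcd1, Lag3, Havcr2, Tigit and Cd160 were scarce in quiescent CD8 T cells. Pdcd1 was at 1.83 and 4.43 CPM there (1 and 10 UMIs) against 459 and 325 CPM in effector cells, in the wild type and the knockout. Havcr2 had 0 UMIs in 105 wild-type and 437 knockout quiescent cells, which, taking 3 counts as the limit of a count of 0, allows up to 2.86% and 0.686% of cells with a UMI, and effector cells exceeded the level that 3 UMIs over each quiescent pool would give by at least 12.8-fold and 49.2-fold. Lag3 was at 20.1 and 11.9 CPM in quiescent and 807 and 701 CPM in effector CD8 T cells. The quiescent levels of Pdcd1, Lag3, Tigit and Icos were between 1.67% and 8.97% of the level in Tregs. Ctla4 was at 9.33% (wild type) and 7.33% (knockout) of its Treg level. The Treg transcripts Izumo1r, Capg, Tnfrsf4 and Lrrc32 were at 0% to 5.08%. Above this range lay Ctla4 of both libraries, Icos of the knockout and, on 7 UMIs, Tigit of the knockout. Tigit was at 5.20% there, which counting error did not separate from the top of the range. Cd28 and Btla were closer between the 2 states. Cd28 was at 108 and 145 CPM in quiescent against 164 and 237 CPM in effector CD8 T cells (1.52-fold and 1.63-fold higher in effector cells), and Btla was at 29.3 and 25.7 CPM in quiescent against 30.7 and 35.7 CPM in effector cells.

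Within states, the lower Pdcd1 of knockout CD8 T cells was present in part. In effector cells it was at 459 CPM (429.5 to 489.5) and 325 CPM (298 to 354), a log2 ratio of -0.50 (-0.65 to -0.34), and in the remaining cells it was at 144 and 67.9 CPM, a log2 ratio of -1.09 (-1.39 to -0.79). In cycling cells it was at 264 and 257 CPM, with overlapping intervals. Lag3 in CD8 T cells was lower in effector and remaining cells, had an interval that held 0 in quiescent cells, and was higher by CPM in cycling cells, at 305 and 364 CPM and a log2 ratio of 0.25 (0.10 to 0.40). The share of thinned cycling cells with a Lag3 UMI was not higher in the knockout, at 43.3% (36.6 to 50.2) and 41.7% (33.2 to 50.6). Without thinning, cycling cells with a Lag3 UMI held 4.95 and 6.06 UMIs on average. Havcr2 was at 70.4 and 65.3 CPM in effector cells and 54.9 and 58.4 CPM in cycling cells, with overlapping intervals in both, and was lower in the remaining cells, at 19.4 and 9.51 CPM (log2 ratio -1.03, -1.89 to -0.19).

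Ctla4, whose level over all CD8 T cells was similar in the libraries, was higher by CPM in the knockout within effector and cycling cells. It was at 476 CPM (446 to 507) and 626 CPM (588 to 666) in effector cells, a log2 ratio of 0.40 (0.27 to 0.53), and at 206 CPM (190.1 to 223) and 315 CPM (289 to 343) in cycling cells, a log2 ratio of 0.61 (0.44 to 0.78). The share of thinned effector cells with a Ctla4 UMI was 53.8% (48.1 to 59.4) and 57.0% (50.9 to 63.0). In thinned cycling cells it was 32.3% (26.1 to 38.9) and 46.2% (37.5 to 55.1), and the intervals overlapped in both states. In quiescent cells Ctla4 was lower in the knockout, at 146 and 104 CPM (-0.49, -0.86 to -0.11), and the part of RNA of other cells in these low levels was not tested. Cd28 was higher by CPM in the knockout in all 4 CD8 states, with log2 ratios from 0.16 in the remaining cells to 0.53 in effector cells and intervals above 0 in 3 of them. Shares of thinned cells with a Cd28 UMI were also higher in each state but had overlapping intervals, at 28.9% and 31.5% in effector cells. By CPM, Icos was higher in all 4 states as well, with intervals above 0 in effector (0.29, 0.02 to 0.57), cycling (0.54, 0.22 to 0.86) and, on 9 and 75 UMIs, quiescent cells (1.01, 0.01 to 2.20). The share of thinned cells with an Icos UMI was higher in the knockout in effector (15.7% and 22.2%) and quiescent cells (2.86% and 7.11%). It was not higher in cycling (13.8% and 12.9%) or remaining cells (11.5% and 9.25%). Btla reached a log2 ratio of 1.29 (0.52 to 2.07) in cycling CD8 T cells, on 26 and 37 UMIs.

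In Tregs, Lag3 was lower in the knockout in each of the 4 states. It was at 216 and 134 CPM in quiescent cells, 1520.0 and 1100.2 CPM in effector cells, 507 and 379.7 CPM in cycling cells and 475 and 370.2 CPM in the remaining cells, and the log2 ratios of -0.69, -0.47, -0.42 and -0.36 all had intervals below 0. Ctla4 was lower in effector Tregs, at 2494 and 2219 CPM (log2 ratio -0.17, -0.24 to -0.09), and in quiescent Tregs (-0.12, -0.22 to -0.03), and its intervals held 0 in the other 2 states. By CPM, Havcr2 was higher in effector Tregs of the knockout, at 61.5 and 92.0 CPM (0.58, 0.16 to 1.00), and so was Icos, at 525 and 653 CPM (0.32, 0.17 to 0.46). The share of thinned effector Tregs with a Havcr2 UMI was similar, at 11.8% (8.56 to 15.7) and 12.4% (8.29 to 17.7). Without thinning, 103 wild-type UMIs lay in 68 cells and 94 knockout UMIs in 46 cells. For Icos the thinned shares were 58.4% and 66.5%, with overlapping intervals. Cd28 and Btla were higher by CPM in all 4 Treg states, with intervals above 0 in 1 state for Cd28 and 2 for Btla. In quiescent Tregs their thinned shares were not higher in the knockout, at 42.6% and 40.3% for Cd28 and 9.19% and 8.44% for Btla.

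**Figure D2:**
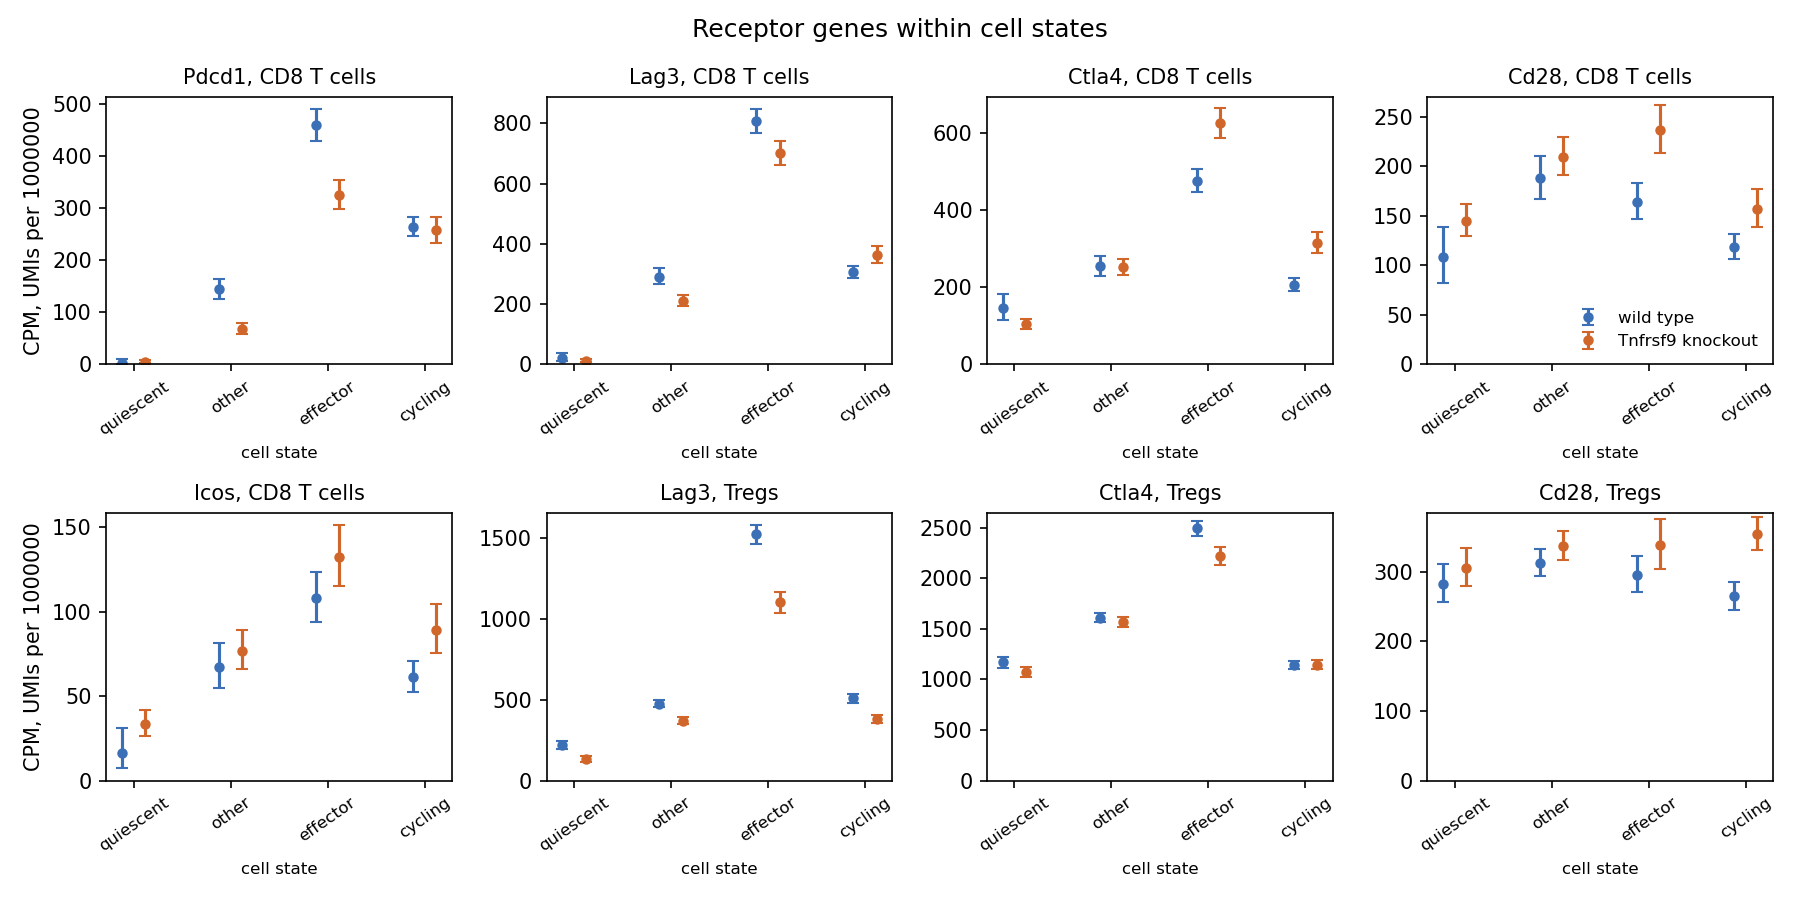
CPM of selected receptor genes in 4 cell states of CD8 T cells and Tregs, 1 point per library with 95% Poisson intervals (counting error only). In CD8 T cells the knockout was below the wild type for Pdcd1 in effector cells (459 and 325) and above it for Ctla4 (476 and 626), and Lag3 was lower in all 4 Treg states.

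When the 4 states of both libraries were given the wild type's shares of UMIs, a calculation added after the values were seen, the ratios in CD8 T cells shifted upwards for all receptors but Btla. Pdcd1 went from -0.93 to -0.34, Lag3 from -0.55 to -0.08, Havcr2 from -0.71 to -0.07 and Tigit from -0.39 to -0.0091. Ctla4 went from 0.06 to 0.37, Icos from 0.12 to 0.38 and Cd160 from -0.17 to 0.26, whereas Cd28 went from 0.34 to 0.38 and Btla from 0.60 to 0.55. No receptor then passed 1.5-fold in CD8 T cells, and the median of the 9 genes was 0.26. In Tregs, Lag3 went from -0.61 to -0.44 and Havcr2 from 0.09 to 0.36. The weighting covers only these 4 states, and whether genotype acts on the states or on the receptors within them cannot be told apart from 1 library each.

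**Figure D3:**
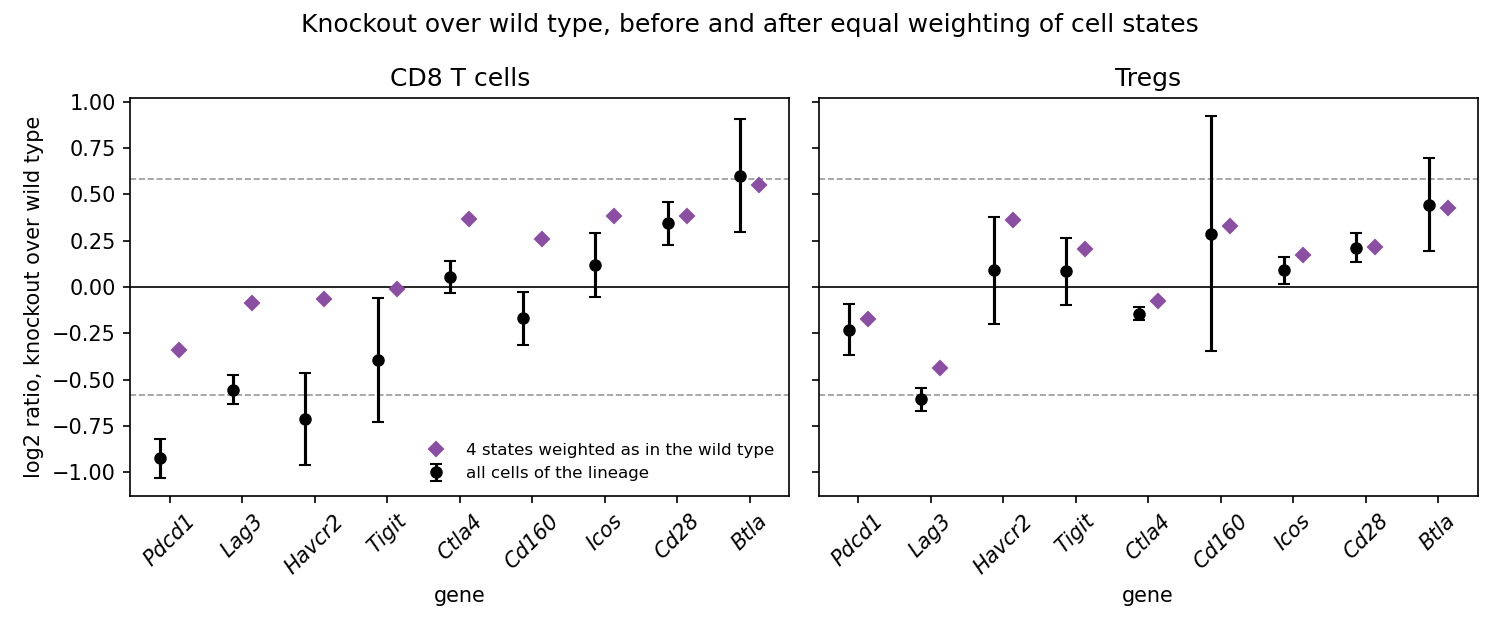
log2 ratio of the knockout over the wild type for each receptor gene. Black points with 95% intervals (counting error only) use all cells of the lineage, purple diamonds give the 4 states the wild type's weights, and dashed lines mark 1.5-fold. In CD8 T cells Pdcd1 moved from -0.93 to -0.34 and Ctla4 from 0.06 to 0.37.

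Detection of several receptors in the same cell was compared in cells thinned to 2000 UMIs, which left 874 and 1184 CD8 T cells and 1476 and 1389 Tregs. Among CD8 T cells, 53.9% (50.5 to 57.2) of those from the wild type and 37.7% (34.9 to 40.5) of those from the knockout had a UMI of 2 or more of the 9 genes, and among Tregs 78.9% (76.8 to 81.0) and 74.1% (71.7 to 76.4) did. Without thinning the shares were 82.4% and 58.7% in CD8 T cells and 91.8% and 88.1% in Tregs. CD8 T cells with no receptor UMI made up 19.3% and 35.9%, and those with 4 or more made up 12.9% and 8.87%. The average number of receptors detected per CD8 T cell was 1.83 and 1.34, and per Treg 2.53 and 2.40.

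Within states, among effector CD8 T cells, 80.5% (75.7 to 84.7) and 77.0% (71.6 to 81.9) had 2 or more receptors, among quiescent CD8 T cells 9.52% and 10.8%, and among cycling CD8 T cells 51.6% and 59.8%, all with overlapping intervals. Effector Tregs had 2 or more receptors in 93.8% and 94.3% of cells, and quiescent Tregs in 66.2% and 59.4%. The most frequent combination of receptors was none in CD8 T cells (169 and 425 cells) and Ctla4 alone in Tregs (182 and 210 cells). Lag3 with Ctla4 and Icos occurred in 7.52% of Tregs from the wild type and 3.89% of those from the knockout, and Pdcd1 with Lag3 and Ctla4 in 3.66% of wild-type CD8 T cells.

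**Figure D4:**
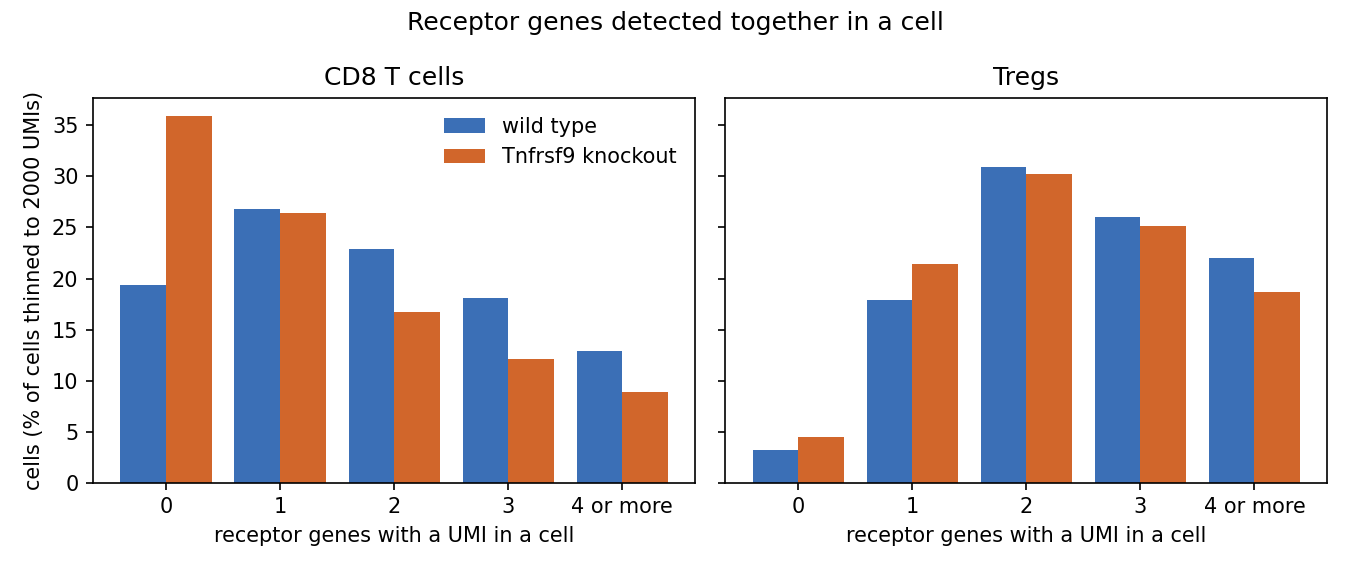
Percentage of cells (thinned to 2000 UMIs) with a UMI of 0, 1, 2, 3 or 4 or more of the 9 receptor genes, 1 bar per library. Among CD8 T cells 19.3% of wild-type and 35.9% of knockout cells had none, and Tregs of both libraries peaked at 2.

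The receptors were detected in the same cells in an uneven manner. Of the 36 pairs in CD8 T cells, the second gene was more often found in cells with the first than in cells without it for 28 pairs in either library, and the interval of that difference lay above 0 for 15 wild-type and 20 knockout pairs. In Tregs this held for 25 wild-type and 24 knockout pairs, with the interval above 0 for 9 and 15. Pairs of other genes were not counted, so these counts have no share over all genes beside them and are descriptive only. Cells with Havcr2 were the most enriched for Lag3. Lag3 was found in 76.8% of wild-type CD8 T cells with a Havcr2 UMI and 41.1% of those without, and in 82.2% and 21.9% in the knockout. Lag3 was found in 65.2% of Pdcd1-positive and 32.7% of Pdcd1-negative wild-type CD8 T cells, and in 62.0% and 17.4% in the knockout. The other named pairs, Havcr2 with Pdcd1, Cd160 with Lag3 and Tigit with Ctla4, had differences of 24.1, 23.2 and 20.5 percentage points in the wild type and 35.1, 33.4 and 30.6 points in the knockout.

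The intervals below 0 in CD8 T cells all involved Cd28, for its pair with Havcr2 in both libraries and with Pdcd1 in the knockout. Of wild-type CD8 T cells with a Cd28 UMI, 1.40% had Havcr2, against 8.03% of those without Cd28, a difference of -6.63 percentage points (-9.13 to -3.41), and in the knockout the shares were 1.83% and 4.55%. In Tregs, all 5 named pairs involved Lag3, with Havcr2, Tigit, Icos, Ctla4 and Pdcd1 as partners. In Tregs with Havcr2, 81.5% (wild type) and 74.0% (knockout) also had Lag3, against 42.1% and 27.6% of those without. Lag3 was less frequent in wild-type Tregs with Btla (27.6%) than in those without (44.7%), whereas in the knockout the shares were 21.8% and 29.9% and the interval of the difference held 0 (-15.5 to 1.22). Icos was less frequent in knockout Tregs with Btla (29.7%) than in those without (43.0%), a difference of -13.3 points (-21.8 to -3.42), against 40.8% and 43.6% in the wild type. Within effector cells alone, the differences for Lag3 in Havcr2-positive against Havcr2-negative cells were 20.9 (2.89 to 31.2) and 34.6 percentage points (16.5 to 44.2) in CD8 T cells and 16.4 and 26.1 points in Tregs, smaller than over all states. Of the 5 named pairs, the interval lay above 0 within effector cells for 4 pairs in wild-type and 2 in knockout CD8 T cells, and for 2 pairs in Tregs of either library. In knockout effector Tregs, Lag3 was found in 60.2% of cells with Ctla4 and 84.6% of the 13 cells without it, a difference of -24.4 points (-37.5 to 3.24) whose interval held 0.

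**Figure D5:**
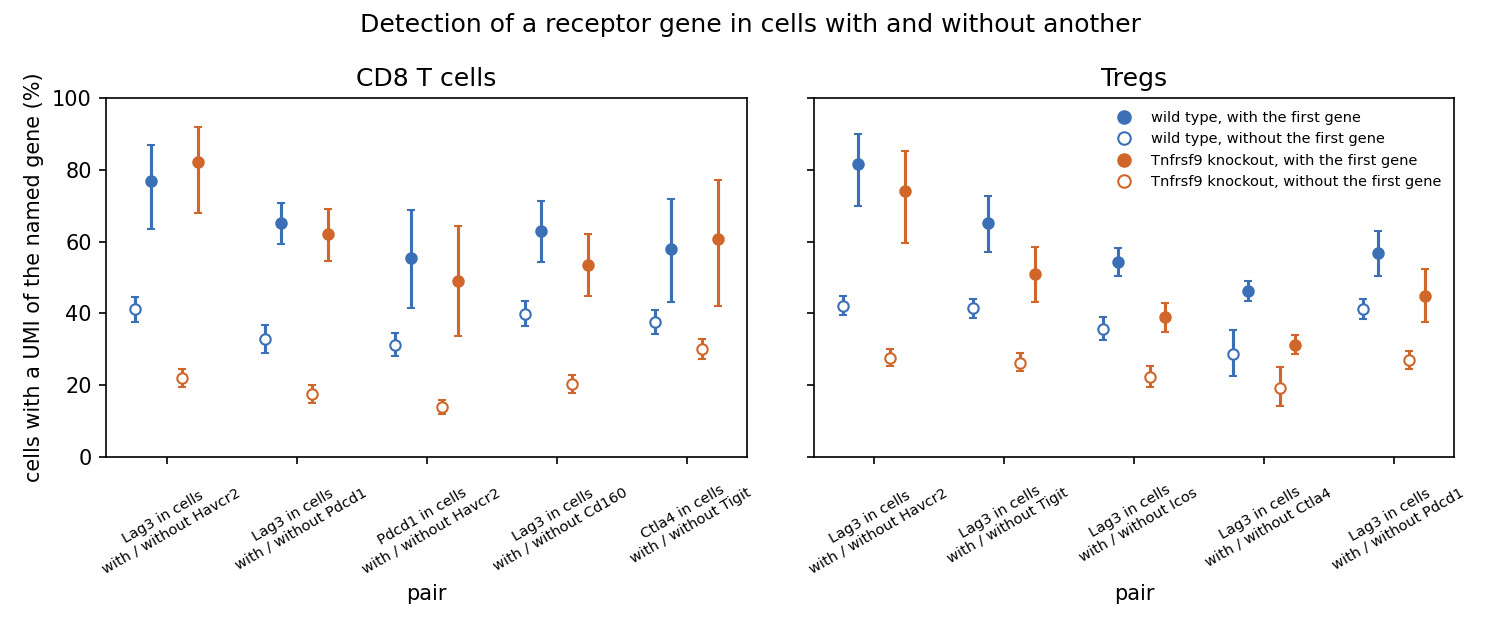
Percentage of thinned cells with a UMI of a receptor gene among cells with (filled) and without (open) a UMI of another, for 5 pairs in each lineage, with 95% binomial intervals (counting error only). In CD8 T cells Lag3 was found in 76.8% of wild-type cells with Havcr2 and 41.1% without, and in 82.2% and 21.9% in the knockout.

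Over 16 pools (2 lineages, 2 libraries and 4 states), the genes with the most similar patterns were named by Pearson's r of log2(CPM + 10), from 5997 genes that defined neither lineage nor state. These values describe pools that share libraries and carry no test. Pdcd1 was followed by Bcl2a1d (0.97, a member of a family of near-identical copies), Plscr1 (0.97) and Sh2d2a (0.96). Lag3 was followed by AU020206 (0.98), Bcl2a1b (0.96, of the same family of copies) and Hip1 (0.96), and Havcr2 by Itgb2, Nab1 and Ech1 (0.93 to 0.95). Tigit was followed by Tnfaip8, Mapre2 and Nol10 (0.98 each), Ctla4 by Galm (0.99), Cd5 and Izumo1r (0.98 each), and Icos by Eea1, Ptp4a2 and Samsn1 (0.98 each). Cd160 was followed by Chn2 (0.98), Xcl1 (0.98) and Amica1 (0.97), Cd28 by Hif1a (0.96), Map3k5 (0.94) and Abhd17c (0.94), and Btla by Utrn, Clint1 and Skap1 (0.86 each).

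Ligands, related receptors, signaling partners and transcription factors of the pathway were examined as fixed lists. Of 10 ligand genes with at least 20 UMIs in CD8 T cells, 1 was more than 1.5-fold lower in the knockout and 4 were higher (8.2% and 13.7% of all genes tested), and in Tregs 0 and 1 of 9 (3.62% and 6.93% of all genes). Cd80, a ligand of CD28 and CTLA-4, was at 14.1 and 3.92 CPM in wild-type and knockout CD8 T cells, whereas Cd274 (PD-L1) was at 33.9 and 67.3 CPM (log2 ratio 0.99, 0.76 to 1.21). The other 3 were Icosl (5 and 27 UMIs), Tnfrsf14 (HVEM; 0.64, 0.13 to 1.17) and Pvr (0.60, -0.04 to 1.25), and in Tregs the gene was Cd86 (0.72, 0.27 to 1.19).

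Of 13 related receptors tested in each lineage, 2 were lower and 3 higher in knockout CD8 T cells and 1 was lower and 2 higher in knockout Tregs, beside the same shares of all genes (8.2% and 13.7% in CD8 T cells, 3.62% and 6.93% in Tregs). Cd226, the activating counterpart of TIGIT, was at 68.9 and 174 CPM in wild-type and knockout CD8 T cells (log2 ratio 1.34, 1.19 to 1.49) and at 22.1 and 44.8 CPM in Tregs (1.02, 0.77 to 1.28). Pecam1 (0.93) and Cd200r1 (0.60) were also higher in CD8 T cells. Klrg1, a marker of differentiated effector cells, was at 8.70 and 0.506 CPM, on 61 and 4 UMIs, and Entpd1 (CD39) at 72.8 and 32.4 CPM. In Tregs Lair1 (1.32) passed 1.5-fold on 14 and 32 UMIs, and Cd244 (-0.63, -1.62 to 0.31) on 27 and 16 UMIs.

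Of 17 signaling partners, only Sh2d1a (SAP; log2 ratio -1.17) passed 1.5-fold in CD8 T cells, where it was lower in the knockout, and 0 did in Tregs. Among 16 transcription factors tested in CD8 T cells, Eomes was at 99.8 and 32.5 CPM (-1.62, -1.83 to -1.41) and Batf at 275 and 179.6 CPM (-0.62), whereas Bach2, a factor of resting T cells, was at 151 and 358 CPM (1.25, 1.14 to 1.35) and Irf4 at 0.59. In Tregs, Eomes (-0.95) was lower and Foxp3 (0.64, 0.40 to 0.89) higher, and Foxp3 was part of the Treg definition. The medians of the lists lay between -0.13 and 0.37 in CD8 T cells and between -0.04 and 0.23 in Tregs. The share of quiescent CD8 T cells also differed between the libraries, and its part in the ratios of these lists was not tested.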

How the data were processed

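Sorted islet T cells of each strain were profiled as 1 library per genotype with 10x Genomics 3' v2 chemistry, and the authors deposited raw UMI count matrices of Cell Ranger 7.0.0 (submitters' processing notes and file headers) on mm10. Whether intron reads were counted is not given in the sources used here. The 9 receptors, the gene lists and the definitions were chosen with earlier results of these data known.

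UMIs were summed per library and lineage and divided by the total (CPM). Intervals at 95% are exact Poisson for CPM, exact conditional for ratios, exact binomial (Clopper-Pearson) for shares and Newcombe's for differences of shares, and cover counting error only. A gene needed 20 UMIs over both libraries of a lineage to be counted, and a ratio was called past 1.5-fold. Totals were 7014920 (wild type) and 7908290 UMIs (knockout) for CD8 T cells and 8888924 and 8152788 UMIs for Tregs. For detection, each cell was thinned to 2000 UMIs, leaving out 17 and 16 CD8 T cells and 76 and 55 Tregs. No doublet caller was run, and cells with Cd8a or Cd8b1 together with Cd4 or Foxp3 entered neither lineage, whereas Il2ra and Ikzf2 did not bar a cell from the CD8 T cells (Ikzf2 UMIs in 40.3% and 28.1% of them, Il2ra in 5.05% and 4.25%).

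The rule for quiescent cells was changed after the data were seen. The first rule (no effector UMI at all) held 3 wild-type and 26 knockout CD8 T cells. A few items of the lists and definitions were left out and are not reported here. All 9 receptors were described. Genes of the lists were named when past 1.5-fold with 20 or more UMIs, at most 6 per list. The 5 pairs with the largest detection difference in the wild type, with 50 or more cells holding the first gene, and the 3 genes most like each receptor among genes with a mean of at least 20 CPM over the pools were named. Software was Python 3.11.15, numpy 2.4.6, scipy 1.17.1 and, for scaling factors, edgeR 4.0.16 in R 4.3.3. The calculations were tested on simulated counts. Alternatives changed cell filters, lineage rules, scaling, weighting, thinning, gene minimum and the cells or states kept.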

Additional observations from a re-analysis of the deposited data

How the results depend on the processing

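Each result was recomputed under up to 14 alternatives, and 85 of 124 recomputed summary values stayed within 1.5 times (counts) or within the interval or error of the reported value (shares and medians). The number of receptors past 1.5-fold lower in CD8 T cells (2) became 4 (Pdcd1, Lag3, Havcr2 and Tigit) with each cell given the same weight or thinned to 2000 UMIs, and 0 without quiescent cells (changed rule) or with states weighted as in the wild type, both chosen after seeing the data. The 1 receptor past 1.5-fold higher in CD8 T cells (Btla) became 0 under a stricter cell filter (500 to 4000 genes, up to 10% mitochondrial), without cycling cells, with median ratio factors, with equal weights, with thinning and with states weighted as in the wild type. The 1 lower in Tregs (Lag3) became 0 without cells holding another cell type's genes, without quiescent cells (either rule) and with weighted states. The median in CD8 T cells (-0.17) became -0.32 under that stricter filter (added after seeing the data), -0.44 without cycling cells, -0.31 with equal weights and -0.35 with thinning, and turned to 0.18 without quiescent cells and 0.26 with weighted states; apart from the weights and cells named, the cause was not tested.

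The share of cells with 2 or more receptors followed depth. At 1000, 3000 and unthinned UMIs it was 33.2%, 65.1% and 82.4% in wild-type and 24.01%, 45.6% and 58.7% in knockout CD8 T cells, and 54.0%, 89.3% and 91.8% in wild-type and 50.3%, 85.3% and 88.1% in knockout Tregs. Without quiescent cells (changed rule) it was 62.5%, 54.0%, 82.1% and 76.8% in the same 4 pools, under the first rule 83.6% and 77.7% in Tregs, and without cycling cells 33.6% in knockout CD8 T cells. TMM and median ratio factors shifted CD8 over Treg ratios by 0.10 to 0.15 on the log2 scale and knockout over wild type ratios by at most 0.06. Over 12 alternatives, the knockout over wild type ratio of Pdcd1 in CD8 T cells ranged from -1.31 to -0.34 and that of Lag3 in Tregs from -0.79 to -0.44, without a change of sign. In the knockout, the CD8 over Treg ratio of Pdcd1 ranged from 0.36 to 1.15 and passed 1.5-fold in 8 of 12. That of Havcr2 in the knockout ranged from -0.41 to 0.60 and kept its sign in 8 of 12. Other CD8 over Treg ratios kept their signs. No paired analysis was possible because each genotype had 1 library.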

Other observations

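Receptor levels were also compared between cells with and without a Tnfrsf9 UMI inside each library, by log2 ratios with 95% intervals of counting error. Among wild-type CD8 T cells, the 240 cells with a Tnfrsf9 UMI exceeded the 651 without for Cd160 (161 against 84.7 CPM, 0.93, 0.72 to 1.13) and Havcr2 (66.3 against 35.7 CPM, 0.89, 0.57 to 1.21), with smaller differences for Pdcd1 (0.40) and Lag3 (0.25). Btla was lower in these cells, at 10.3 against 26.4 CPM (-1.36, -2.02 to -0.75). In the knockout, where 142 CD8 T cells held a residual Tnfrsf9 UMI and 1058 did not, Cd160 (1.43), Tigit (1.19), Pdcd1 (1.12), Havcr2 (1.07) and Lag3 (1.01) were higher in the cells with one, and Btla was at 0.48 (0.03 to 0.91). For Tigit the wild-type value was -0.38 (-0.89 to 0.11).

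In wild-type Tregs, 779 cells had a Tnfrsf9 UMI and 773 did not, and Havcr2 (0.71, 0.26 to 1.18), Pdcd1 (0.40, 0.20 to 0.59), Lag3 (0.37, 0.29 to 0.45) and Tigit (0.33, 0.06 to 0.61) were higher in the former. Ctla4, at 1534 against 1621 CPM (-0.08, -0.13 to -0.03), and Cd28, at 271 against 322 CPM (-0.24, -0.36 to -0.13), were lower. In knockout Tregs Ctla4 was higher in the 428 cells with a residual Tnfrsf9 UMI, at 1619 against 1308 CPM (0.31, 0.25 to 0.36). Detection of a Tnfrsf9 UMI also depends on the depth of a cell, and cells with and without one were not matched for cell state in either lineage. The parts of depth and state in these values were not tested.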
